A study of Mus musculus with 2 samples.

Results

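Monocytes of the infarcted mouse heart that carried transcripts of amphiregulin (Areg), inhibin beta A (Inhba) or interleukin 6 (Il6) were picked from 2 single-cell libraries by their counts. A cell was kept if it held at least 4000 unique molecular identifiers (UMIs, one per captured transcript), at most 20% mitochondrial UMIs and under 0.1% of UMIs from G0s2, Il1r2, Hdc, Mmp9, Csf3r and Cxcr2, genes of neutrophils. It also had to hold at least 3 UMIs of Areg, Inhba and Il6 in sum and at least 3 of Vcan and Fn1. It had to stay under 5 UMIs of Chil3, under 5 of Arg1, under 10 of Ccl24, under 10 of the 3 C1q genes, under 3 of Lyve1, Folr2, Cbr2 and Timd4 in sum, and under 3 of Cd209a and Flt3. The rule kept 152 of 11297 barcodes, 61 of 6210 in the sham library and 91 of 5087 in the splenectomy library. Because these measured genes chose the cells, their levels are given as a description.

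Both libraries came from hearts of wild-type C57BL/6J males aged 8 weeks, named C57BL/6 in the series' design. Each mouse had its left anterior descending artery tied for 60 minutes, and the heart was taken 24 hours after the tie was released. One group had a sham operation and the other had its spleen removed. Leukocytes were taken from the hearts by magnetic sorting for CD45, and libraries were made with Chromium Single Cell 3′ v3 chemistry. There was 1 library per group and the number of hearts in each is not stated, so no difference between the groups has a replicate check and no test is given. Every interval below is an exact 95% interval that covers counting error only, and PCR, dissection and differences between animals are outside it. Intervals of levels and ratios come from summed counts and also leave out differences between cells, and 1 cell can hold much of a gene's counts.

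Amphiregulin is an epidermal growth factor (EGF) receptor ligand that is made as a membrane-bound precursor, shed by the protease ADAM17, and known for its part in tissue repair. Inhba encodes the subunit that pairs with itself to form activin A, a ligand of the TGF-beta family that signals through SMAD2 and SMAD3 and is held in check by follistatin. Interleukin 6 binds its receptor IL6RA together with gp130, the product of Il6st, and activates STAT3, which in turn induces Socs3. Classical monocytes enter the heart through CCR2 after ischaemia and reperfusion and then take on macrophage states. Versican (Vcan) and fibronectin (Fn1) are matrix proteins that recruited monocytes are known to make, and F10 encodes coagulation factor X, which cleaves prothrombin once activated.

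The genes that name these cells lie apart in the genome. On mm10 with GENCODE vM21, Areg (ENSMUSG00000029378) spans chromosome 5 from 91139599 to 91148432, Il6 (ENSMUSG00000025746) spans chromosome 5 from 30013114 to 30019981, and Inhba (ENSMUSG00000041324) spans chromosome 13 from 16011851 to 16031621, all protein coding and on the plus strand. F10 (ENSMUSG00000031444) lies on chromosome 8 from 13037308 to 13056676 on the plus strand and Vcan (ENSMUSG00000021614) on chromosome 13 from 89655312 to 89742509 on the minus strand.

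The 250 bases before the start of Areg, Inhba and Il6 are shown because cells were chosen on the sum of these 3 genes, and they let the proximal promoters be compared. They are RefSeq promoters of build GRCm38.p6 on the plus strand, Areg at chr5:91139349-91139598, Inhba at chr13:16011601-16011850 and Il6 at chr5:30012864-30013113. Capitals mark matches on either strand to the cAMP response element TGACGTCA, its shorter core TGACG, the AP-1 motif TGANTCA, an NF-kB motif and a loose C/EBP motif TTGCNNAA.
Areg: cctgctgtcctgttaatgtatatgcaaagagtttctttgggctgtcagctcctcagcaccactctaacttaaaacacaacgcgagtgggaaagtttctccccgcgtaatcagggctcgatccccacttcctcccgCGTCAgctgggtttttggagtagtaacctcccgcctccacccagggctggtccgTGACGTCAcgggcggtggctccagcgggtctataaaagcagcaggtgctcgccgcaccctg
Inhba: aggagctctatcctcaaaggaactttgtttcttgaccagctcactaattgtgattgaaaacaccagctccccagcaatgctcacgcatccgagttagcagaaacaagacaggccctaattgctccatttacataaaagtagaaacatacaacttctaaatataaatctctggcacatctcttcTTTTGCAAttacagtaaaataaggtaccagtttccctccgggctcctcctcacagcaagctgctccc
Il6: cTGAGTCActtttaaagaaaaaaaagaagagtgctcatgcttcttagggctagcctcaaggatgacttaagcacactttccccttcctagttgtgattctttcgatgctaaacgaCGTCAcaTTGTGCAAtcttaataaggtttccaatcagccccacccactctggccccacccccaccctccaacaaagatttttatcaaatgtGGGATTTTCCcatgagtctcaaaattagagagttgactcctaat

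The Areg promoter held the whole cAMP response element at 61 to 54 bases before the start, with the core inside it on both strands and a further core at 115 to 111. Of 27025 promoters of this length, 1.62% held the whole element and 17.9% its core. The Il6 promoter held an NF-kB match at 44 to 35 bases before the start, a C/EBP match at 128 to 121, a core of the cAMP response element at 135 to 131 and an AP-1 match at 249 to 243. The Inhba promoter held a C/EBP match at 67 to 60 and no other. The shares over all promoters were 1.40% for NF-kB, 9.55% for C/EBP and 6.87% for AP-1. A match is a stretch of letters and not a measured binding site, and absent letters say nothing of the factor.

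Against the label, 12 of the 152 cells held at least 2 UMIs of genes of another lineage. Each was classed as fibroblast, endothelial or lymphocyte by the class with most UMIs, and the UMIs given are sums over all other-lineage genes. In the sham library 5 cells of the fibroblast class had 16 to 295 such UMIs and 1 cell of the lymphocyte class had 11. In the splenectomy library 4 cells of the fibroblast class had 42 to 489 and 2 cells of the endothelial class had 38 and 61. The 11 cells with fibroblast or endothelial genes held at most 3 UMIs of Tyrobp and at most 6 of Lyz2, genes that monocytes express at high level, and their cell totals reached 68550 and 80476 UMIs. All UMIs of Col1a1 and Dcn among the 152 cells lay in the cells with other-lineage genes, and so did 50.4% of the sham Il6 UMIs and 28% of the splenectomy Il6 UMIs. Fibroblasts and endothelial cells are known to make Il6 and Fn1 too.

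The other 140 cells, 55 from the sham and 85 from the splenectomy library, carried monocyte genes, and the values below are theirs unless the 152 cells are named. Lyz2 and Cd14, which encode lysozyme and a lipopolysaccharide receptor, were present in 55 of 55 and 85 of 85 cells. Ccr2 was present in 48 and 80 cells and Csf1r in 50 and 78, the receptors for CCL2 and for colony-stimulating factor 1. Tyrobp had a median of 35 and 42 UMIs per cell, although 1 sham cell held a single UMI of it. Ms4a1, Cd3e, Cd3d, Cd3g, Cdh5, Col1a1, Dcn and Ly6g were at 0 in both libraries. Of 12 endothelial list genes 5 had a UMI in each library, of 13 fibroblast and cardiomyocyte list genes 5 and 7 did, and their summed level was at most 2.72 UMIs per 10000 in any cell. Adgre1, which encodes the macrophage protein F4/80, was at 44.8 counts per 1000000 summed counts (CPM) in the sham and 63.1 CPM in the splenectomy library, against 100.5 and 97.4 CPM in the Chil3 Ly6c2 monocytes described further on. The absence of other-lineage genes follows in part from the removal of the 12 cells, so the label rests on the monocyte genes. Not all of these were high. Ly6c2, a marker of classical monocytes, had a UMI in 36 of 55 and 49 of 85 cells, with a median of 1. Summed classical monocyte genes had medians of 310 and 365 UMIs per 10000. The medians were 503 and 545 in the Chil3 Ly6c2 monocytes, chosen on Ly6c2, and 323 and 388 in the Ms4a4c Ccr2 monocytes, also described further on.

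Few of the 140 cells carried all of the genes in the name. Areg had 741 UMIs in 35 of 55 sham cells, with a median of 4 and a maximum of 96 per cell, and 818 UMIs in 42 of 85 splenectomy cells, with a median of 0 and a maximum of 77. Inhba had 312 UMIs in 24 sham cells, up to 51 per cell, and 522 UMIs in 40 splenectomy cells, up to 98. Il6 had 70 UMIs in 23 sham cells, up to 9 per cell, and 313 UMIs in 41 splenectomy cells, up to 40. Each gene was thus at 0 in a large share of the cells and high in a few, and no cell of the sham library held 10 or more Il6 UMIs while 7 of the splenectomy library did. At least 3 UMIs of both Areg and Inhba were found in 5 of 55 and 4 of 85 cells, and at least 3 of all of them in 1 cell of each library.

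**Figure D1:**
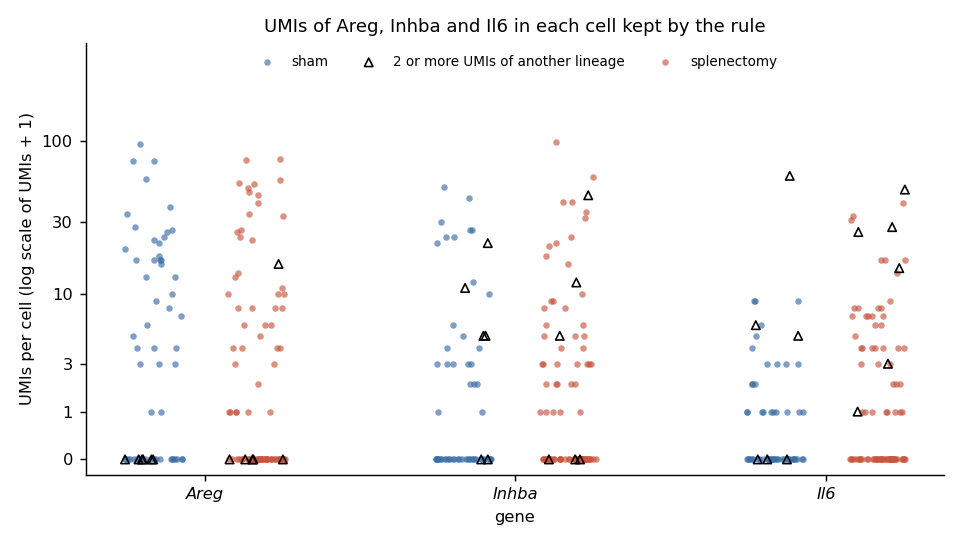
UMIs of Areg, Inhba and Il6 per cell (vertical axis, log scale of UMIs + 1) in the 61 sham (blue) and 91 splenectomy (red) cells kept by the rule. Triangles are the 12 cells with at least 2 UMIs of another lineage, which hold several of the highest Il6 counts, and many cells lie at 0 for each gene.

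The threshold on the sum shapes this pattern, since a cell with one gene high needs no other. Among the 217 sham and 204 splenectomy cells that met every other condition and held no other-lineage genes, whatever their Areg, Inhba and Il6, at least 3 Areg UMIs were found in 33 and 35, at least 3 Inhba UMIs in 19 and 30, and both in 5 and 4. Of all sham cells with the other conditions met, 131 held no UMI of the 3 genes, 21 held 1, 16 held 2, 8 held 3, 5 held 4 and 36 held 10 or more. In the splenectomy library these numbers were 87, 24, 15, 15, 7 and 41. Without other-lineage cells, the 13 and 21 cells just inside the threshold, with 3 or 4 UMIs, had 234 CPM of F10 in the sham and 319 in the splenectomy library. The 35 and 38 cells just outside, with 1 or 2 UMIs, had 204 and 314 CPM.

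After each cell was thinned to 4000 UMIs, Areg was found in 58.2% of sham cells (44.1 to 71.3) and 42.4% of splenectomy cells (31.7 to 53.6), against 63.6% and 49.4% before. Inhba was found in 29.1% (17.6 to 42.9) and 37.6% (27.4 to 48.8) and Il6 in 20% (10.4 to 32.97) and 31.8% (22.1 to 42.8). Inhba and Il6 were found in 43.6% and 41.8% of sham cells and 47.1% and 48.2% of splenectomy cells before thinning. Thinned lymphocytes gave 5.33% and 3.45% for Areg, 1.33% and 0% for Inhba and 1.33% and 1.15% for Il6, among 75 and 87 cells. Areg is known in some lymphoid cells, and 83 of its UMIs lay in 4 sham and 110 in 4 splenectomy lymphocytes. The source of these UMIs was not tested. The minimum on these genes sets the shares in the chosen cells, and the medians of UMIs were 14227 and 13600 in the chosen cells and 5581 and 5909 in the lymphocytes.

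The chosen cells held a small part of these transcripts in the libraries, which were made from cells sorted for CD45. They made up 0.886% and 1.67% of barcodes and held 5.64% and 4.78% of all Areg UMIs, 6.63% and 6.41% of Inhba UMIs and 3.79% and 6.31% of Il6 UMIs. With the limits on Chil3, C1q, Arg1, Ccl24, resident and dendritic genes lifted, a wider set of 589 sham and 874 splenectomy cells held 78.7% and 85.9% of Areg, 70.0% and 74.0% of Inhba and 70.9% and 83.7% of Il6 UMIs. In that set 70.5% and 62.2% of cells passed 5 UMIs of Arg1, an enzyme of arginine breakdown, and 50.1% and 59.3% passed 5 UMIs of Chil3, a chitinase-like protein. Most cells with these transcripts thus carried Arg1 or Chil3 and were left out by the rule.

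Cells that differed in Areg and Inhba also differed in other genes. In the sham library 28 cells held at least 3 UMIs of Areg and under 3 of Inhba, and 14 held the reverse. The Inhba cells had 609 CPM of F10 (496 to 741) against 138 (108 to 174) in the Areg cells, and 2223 CPM of Thbs1 (2001 to 2463) against 530 (469 to 597). In the splenectomy library 31 and 26 cells fell into these sets. There F10 stood at 455 CPM (387 to 530) in the Inhba cells and 239 (197 to 287) in the Areg cells, and Thbs1 at 2228 (2076 to 2388) and 1638 (1525 to 1758). Thbs1 encodes thrombospondin 1, a matrix protein that activates latent TGF-beta. F10 and Thbs1 were higher beside Inhba than beside Areg in both libraries, and the gap was wider in the sham library.

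Spp1, which encodes osteopontin, was at 1931 CPM in the Inhba cells and 777 in the Areg cells of the sham library, and at 3915 and 1269 in the splenectomy library. Cxcl3, a ligand of the neutrophil receptor CXCR2, was at 566 CPM beside Inhba and 74.0 beside Areg in the sham library and at 552 and 163 in the splenectomy library. The few cells with both genes, 5 and 4, had 3999 and 3577 CPM of Cxcl3 and 6032 and 10961 CPM of Spp1. H2-Ab1, a chain of an MHC class II molecule, went the other way in the sham library, with 908 CPM beside Inhba and 4167 beside Areg, and stood closer in the splenectomy library at 929 and 1182. The 8 sham and 24 splenectomy cells with under 3 UMIs of either gene had entered through Il6 or through small counts of several genes, and their Il6 was 416 and 477 CPM. These sets were formed after the counts were seen and hold few cells, and a cell's Areg, Inhba and Il6 sum to at least 3 by construction.

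MHC class II genes varied widely among the chosen cells. UMIs of H2-Aa, H2-Ab1, H2-Eb1 and Cd74, which present peptides to CD4 T cells, had a median of 47.7 per 10000 UMIs in the sham and 7.29 in the splenectomy cells, with ranges of 0 to 500 and 0 to 545. At least 50 per 10000 were found in 27 of 55 sham cells, 49.1% (35.4 to 62.9), and in 22 of 85 splenectomy cells, 25.9% (17.0 to 36.5). The limit of 50 is a chosen cut and no gap between groups of cells was shown. Between 40 and 60 per 10000 lay 2 and 3 cells, with 1 splenectomy cell at 49.98. The same limit was passed by 5.97% and 5.44% of the Chil3 Ly6c2 monocytes and by 53.3% and 44.6% of the Ms4a4c Ccr2 monocytes.

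The cells high in MHC class II had less Ly6c2 and S100a8 in both libraries, but the order of Ccr2 differed by library. Ccr2 was at 406 CPM (348 to 470) in high and 304 (252 to 364) in low sham cells. In the splenectomy library Ccr2 was at 377 CPM (310 to 455) and 525 (478 to 574). Ly6c2, which marks classical monocytes, was at 148 CPM (114 to 189) in the 27 high cells and 683 (603 to 770) in the 28 low cells of the sham library. In the splenectomy library it was at 107 CPM (72.9 to 152) in 22 high cells and 394 (354 to 437) in 63 low cells. S100a8, a calcium-binding alarmin, was at 79.8 and 423 CPM in the sham and 111 and 610 CPM in the splenectomy library. Both genes were thus several-fold lower in the high cells of each library. Few cells carried most of the S100a8, with a median of 1 UMI per cell, 85 of 199 UMIs in 1 sham cell and 128 of 581 in 1 splenectomy cell. Summed neutrophil genes moved with it, at a median of 6.24 per 10000 in high and 15.5 in low sham cells and 6.18 and 13.1 in splenectomy cells, and macrophage genes stood at 41.5 and 97.2 and at 69.4 and 78.0. Their part in the result was not tested. Inhba followed them, with 84.3 CPM (59.4 to 116) in high and 709 (627 to 798) in low sham cells, and 211 (161 to 271) and 513 (467 to 562) in the splenectomy library. F10 did so too, at 171 CPM (134 to 214) and 459 (394 to 531) in the sham library and 246 (192 to 310) and 400.2 (360.0 to 444) in the splenectomy library. Areg went the other way, at 1135 CPM in high and 626 in low sham cells and at 958 and 602 in the splenectomy library. Cells were chosen on the sum of Areg, Inhba and Il6, so a cell low in one needed another to be kept. The opposite order of Inhba and Areg is thus set in part by the choice. Il6 was at 66.1 and 106 CPM in the sham and at 270 and 261 in the splenectomy library, so it was lower in the high cells of the sham library and alike in the splenectomy library.

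Summed over 18 list genes, dendritic cell genes differed little between high and low cells. Their median was 23.1 UMIs per 10000 in the high and 18.3 in the low sham cells, and 20.2 and 19.4 in the splenectomy cells. Single genes did not all follow the sum. Zbtb46, a transcription factor of conventional dendritic cells, had 4 UMIs in the 27 high and 0 in the 28 low sham cells. Ccr7, a receptor for migration to lymph nodes, had 10 and 0. In the 22 high and 63 low splenectomy cells Zbtb46 had 0 and 1 UMIs and Ccr7 had 1 and 1. Clec10a, also of the list, was at 18.2 CPM in high and 2.58 in low sham cells. It was at 62.3 and 7.78 CPM in the splenectomy cells, on 18 UMIs or fewer. Flt3 and Cd209a, which the sum includes, were limited by the rule and say nothing here. Summed classical monocyte genes had a median of 269 per 10000 in high and 353 in low sham cells and 292 and 396 in the splenectomy cells.

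**Figure D2:**
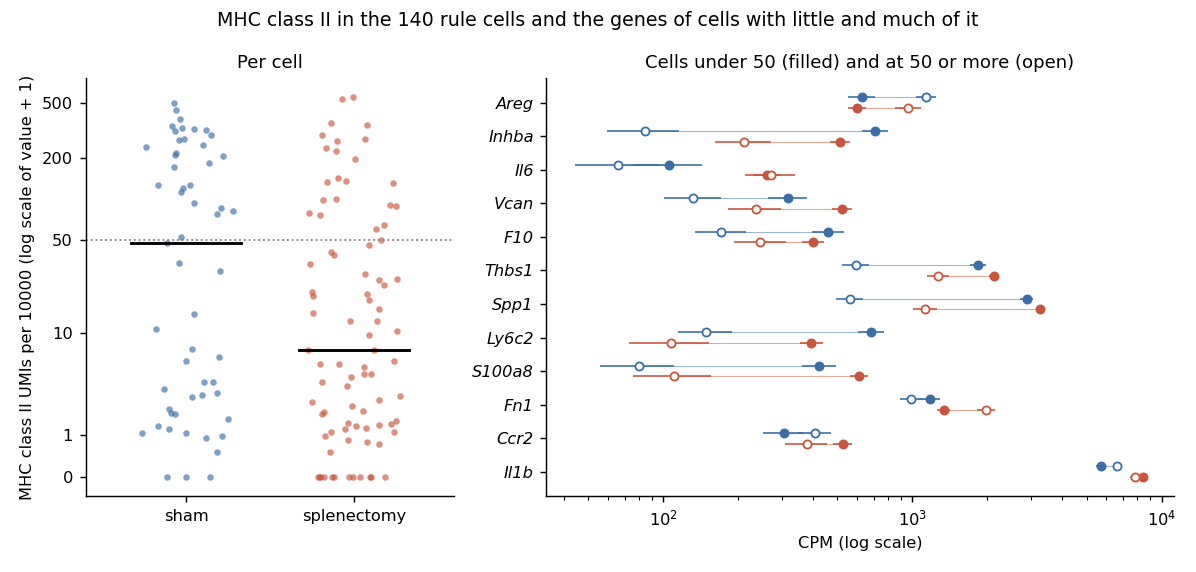
Left, UMIs of 4 MHC class II genes per 10000 UMIs in each of the 140 cells (log scale of value + 1), with the median as a bar and a dotted line at 50. Right, CPM (log axis) of 12 genes in cells under 50 (filled) and at 50 or more (open) with exact 95% intervals, sham in blue and splenectomy in red. Inhba, Vcan, F10, Spp1, Ly6c2 and S100a8 lie higher in the cells with little MHC class II of both libraries and Areg lies lower. The opposite order of Inhba and Areg is set in part by the choice of cells on their sum with Il6.

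The chosen cells were set beside other monocytes of the same library. Chil3 Ly6c2 monocytes held at least 5 UMIs of Chil3 and at least 3 of Ly6c2 (318 sham and 294 splenectomy cells). Ms4a4c Ccr2 monocytes held at least 3 UMIs of each of these genes, under 3 of Areg, Inhba and Il6 and under 5 of Chil3 (180 and 74 cells). Both kept the rule's limits on C1q, Arg1, Ccl24, resident and dendritic genes but needed no Vcan or Fn1, so differences in Areg, Inhba, Il6, Chil3, Vcan, Fn1, Ly6c2, Ms4a4c and Ccr2 are set in part by the choice. At 2-fold in both libraries and at least 50 counts, 32 of 6177 genes (0.518%) were higher in the chosen cells than in these monocytes together and 71 (1.15%) were lower. With the 12 cells of other lineages included the counts were 105 of 6222 (1.69%) and 89 (1.43%).

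Among genes with at least 100 counts in the chosen cells or the monocytes of each library, found in 10% of the cells and 1.5-fold apart in each, the highest apart from the genes of the rule were AA467197, Cd9, Hilpda, Tnip3, Il1a and Clec4n. AA467197 was at 1407 and 911 CPM against 385 and 241 CPM in the monocytes. Cd9, a tetraspanin of macrophages, was at 596 and 616 CPM against 145 and 178. Hilpda, a lipid droplet protein induced by hypoxia, was at 622 and 466 CPM against 136 and 169. In each case the first value is the sham library and the second the splenectomy library, and both libraries showed the gap. Il1a, which encodes interleukin 1 alpha, was at 184 and 381 CPM against 67.5 and 143, and Tnf was at 233 and 327 against 100.6 and 122. Tnip3 and Malt1, a regulator and a component of NF-kB signalling, were at least 1.42 and 1.09 higher on the log2 scale in each library. Clec4n, the receptor dectin-2, Flrt3, Pmepa1, Cxcl10, Bcl2a1d, Bcl2a1b, Ass1, Ccnd2, Cd74 and Acod1 completed the 20 genes. Cd74 and Acod1 were at 0.97 on the log2 scale in the library with the smaller gap. They were thus just under 2-fold and outside the 32 genes counted above. The gaps are against both kinds of monocytes pooled and need not hold for each. In Ms4a4c Ccr2 monocytes alone Cd74 was at 7606 and 5697 CPM, above the 6056 and 3148 CPM of the chosen cells.

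Lower in the chosen cells beside Chil3 were Wfdc21, Slc28a2, Saa3, Mgst1, Csf3r, Pi16, Apoc1, Ly6c2 and Lrg1. Ly6c2 stood at 399 and 324 CPM against 1107 and 835 in the monocytes. Saa3, an acute-phase apolipoprotein, stood at 82.3 and 373 CPM against 342 and 1302. Mgst1, a microsomal glutathione transferase, stood at 33.9 and 68.2 CPM against 168 and 221. Chil3 is limited by the rule itself. Csf3r is part of the neutrophil limit, which the other monocytes also had to meet.

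Beside other monocytes, F10 and Vcan of the chosen cells were higher than in one kind and near or below the other. Vcan is a gene of the rule. F10 was at 306 CPM (269 to 346) in the sham and 363 (329 to 399) in the splenectomy cells, against 245 (231 to 261) and 409 (389 to 430) in the Chil3 Ly6c2 monocytes and 141 and 183 in the Ms4a4c Ccr2 monocytes. Vcan was at 219 CPM (188 to 253) and 452 (414 to 492), below the 371 (353 to 390) and 656 (630 to 682) of the Chil3 Ly6c2 monocytes and above the 112 (99.0 to 127) and 263 (233 to 297) of the Ms4a4c Ccr2 monocytes. Ccl24 macrophages, 37 and 99 cells with at least 10 UMIs of Ccl24, had more Il6, at 201.3 and 376 CPM against 84.7 and 263, and about as much Inhba, at 369 and 322 CPM against 377 and 439. The order of Areg differed by library: 896 CPM in the chosen cells and 499.8 in the Ccl24 macrophages of the sham library, and 688 and 1192 in the splenectomy library.

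**Figure D3:**
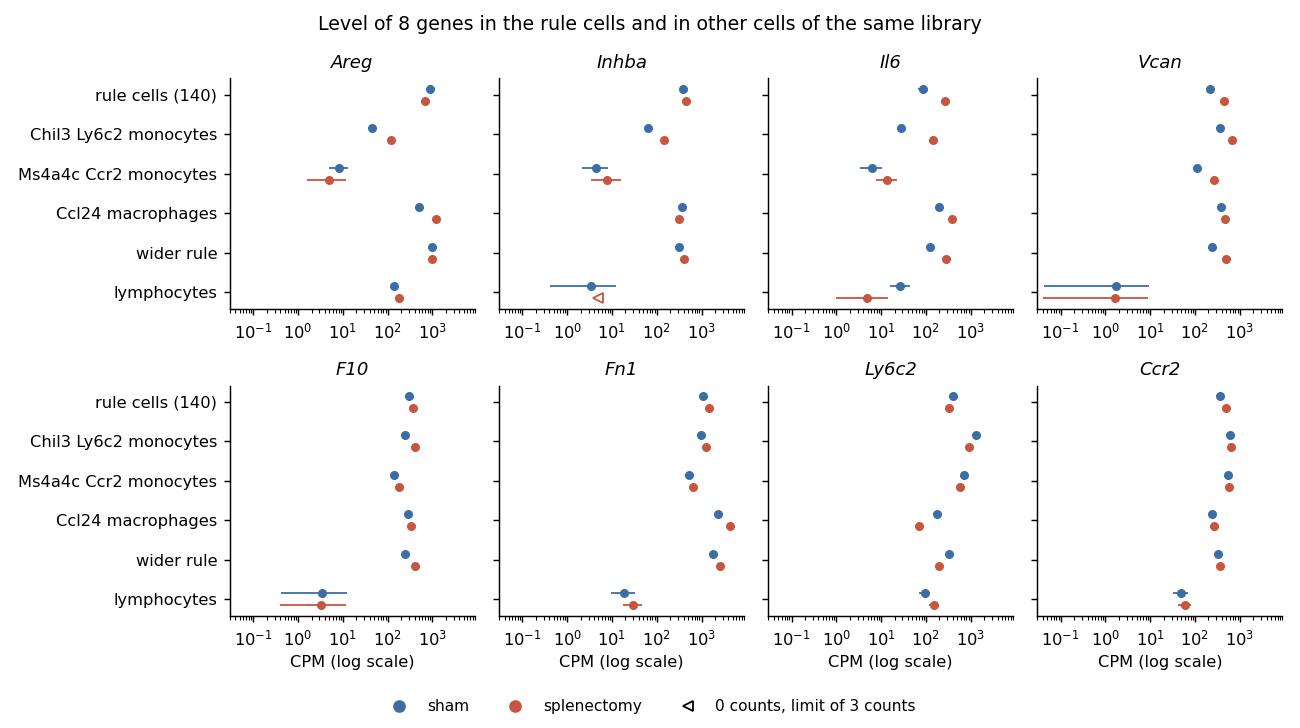
CPM (log axis) of 8 genes in the 140 chosen cells, 2 kinds of monocytes, Ccl24 macrophages, the wider rule without limits and lymphocytes, sham in blue and splenectomy in red, with exact 95% Poisson intervals. Areg, Inhba and Il6 are high in the chosen cells by choice, whereas F10, Vcan and Fn1 lie within the range of the other myeloid cells.

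The chosen cells made up 2.2% of cells passing the limits on UMIs, mitochondrial and neutrophil genes in the sham library (61 of 2776, 1.68 to 2.81) and 3.49% in the splenectomy library (91 of 2604, 2.82 to 4.27). The splenectomy share was 1.30 percentage points higher, and it was higher under each of the 13 alternatives, by 0.921 to 12.3 points. Without cells of other lineages 55 and 85 cells remained, 1.98% and 3.26%. Under the wider rule, which put 106 of 8669 genes (1.22%) at least 2-fold above the sham library and 69 (0.796%) below it, the shares were 21.2% (19.7 to 22.8) and 33.6% (31.8 to 35.4). Of the wider set the chosen cells were 10.4% in both libraries, so the share of cells with these transcripts differed between the libraries while the part of them that passed the limits was alike. A share moves when any other cell type is captured more or less often, and 1 library per group cannot separate that from the treatment.

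Between the libraries, 46 of 2886 genes (1.59%) with at least 50 counts were at least 2-fold higher in the splenectomy cells and 44 (1.52%) at least 2-fold lower. Over all 152 cells 102 of 3503 genes (2.91%) were higher and 61 (1.74%) lower, so the number of higher genes was over 2 times as large with the 12 cells of other lineages. Fabp4, a fatty acid binding protein of endothelium, led that list with 6 counts in the sham and 600 in the splenectomy cells, and 98% of the latter lay in the cells of other lineages. Eng, which encodes the endothelial protein endoglin, had 95% of its splenectomy counts there, Lrg1 74.4% and Lcn2 70.8%. Selenop (55.8%) and Dnajb9 (38.8%) were partly theirs. Among the lower genes of the 152 cells, Hist1h2ap had 68.0% of its sham counts in them, Ugdh 79.8%, Dctpp1 60.0% and Axl 38.1%.

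Among genes with at least 100 counts in either library and in 10% of cells, the acute-phase gene Saa3 was highest in the 140 cells, at 82.3 CPM in the sham and 373 CPM in the splenectomy cells, which is 2.18 on the log2 scale (1.81 to 2.57). It was found in 16.4% and 30.6% of cells, and 1 sham cell held 36.8% of its sham counts. Tmem176a and Tmem176b, a pair of neighbouring membrane protein genes, stood at 24.2 and 37.5 CPM in the sham and 87.5 and 122 CPM in the splenectomy cells. Lpl, which encodes lipoprotein lipase, was at 66.5 and 182 CPM, and Apoe, apolipoprotein E, at 484 and 1246 CPM (log2 ratio 1.36, 1.20 to 1.53). Hmox1, the haem-degrading enzyme, stood at 350 and 878 CPM (1.33, 1.14 to 1.52). The chemokine gene Ccl3 was at 218 and 511 CPM (1.23, 0.99 to 1.48), and the matrix protease gene Mmp19 at 154 and 325 CPM (1.08, 0.79 to 1.38). Ifitm6 and the adenosine receptor gene Adora2b completed the 12 highest with F13a1 and Il6. Under the wider rule the log2 ratios of Apoe and Hmox1 were 0.01 and -0.07, so these differences were not seen there.

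With the same limits the lowest genes were led by Pf4, platelet factor 4, at 206 and 26.9 CPM, but 1 sham cell held 75.3% of its sham counts. Ly6a, which encodes Sca-1 and is induced by interferon, was at 227 CPM in the sham and 37.0 CPM in the splenectomy cells (log2 ratio -2.62, -3.13 to -2.14), with a UMI in 49.1% and 18.8% of the cells. Ifi27l2a was at 3785 and 1387 CPM (-1.45, -1.53 to -1.36), Bst2, tetherin, at 496 and 204 CPM (-1.28, -1.52 to -1.05), and Psmb9, an immunoproteasome subunit, at 129 and 49.6 CPM (-1.38, -1.87 to -0.91). H2-Ab1 was at 2832 and 990.3 CPM (-1.52, -1.62 to -1.41), with H2-Eb1 and H2-DMb1 beside it. Sdc3, syndecan 3, was at 126 and 51.3 CPM and Pdpn, podoplanin, at 134 and 46.3 CPM. Interferon-induced and MHC class II genes thus made up much of the lower end.

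**Figure D4:**
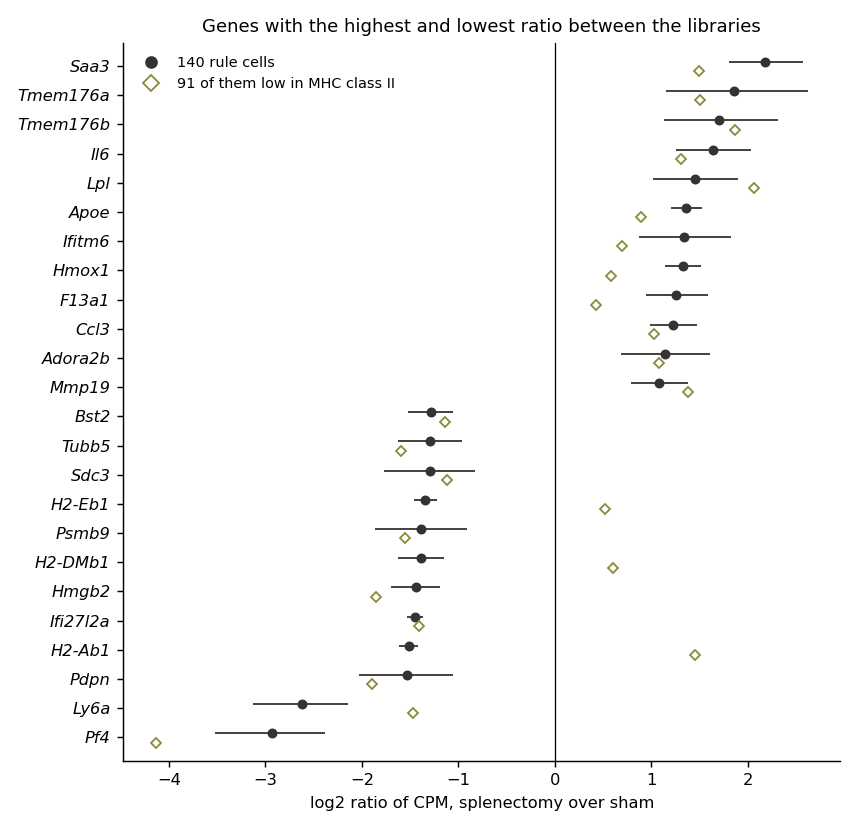
Log2 ratio of CPM, splenectomy over sham, of the 12 highest and 12 lowest genes in the 140 chosen cells (black, exact 95% intervals) and in the 91 of them with little MHC class II (diamonds, no interval drawn). H2-Ab1, H2-Eb1 and H2-DMb1 lie below 0 in the 140 cells and above 0 in the 91, whereas Saa3, Il6, Ly6a and Ifi27l2a keep their side.

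Some of these genes also differed between the libraries in the other monocytes, and others differed little or went the other way. Saa3 had a log2 ratio of 1.63 in Chil3 Ly6c2 and 2.84 in Ms4a4c Ccr2 monocytes, Tmem176b 1.46 and 0.89, Ly6a -0.90 and -1.30, Ifi27l2a -1.15 and -0.88, and Sdc3 -1.13 and -1.24. Apoe stood at 0.11 and -0.01 there and Ccl3 at 0.30 and -0.99. H2-Ab1 stood at 0.26 and -0.29, a smaller difference than in the chosen cells. No test of the difference between the cell groups is possible with 1 library per group.

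The ligand genes that define the cells were described in the same way. Il6 stood at 84.7 CPM (66.0 to 107) in the sham and 263 CPM (235 to 294) in the splenectomy cells, a log2 ratio of 1.64 (1.26 to 2.03). Over all 152 cells, in which cells of other lineages held much of the Il6, the ratio was 1.17. In the 91 cells low in MHC class II it was 1.31, in the wider set 1.18, with the 152 cells weighted equally 0.86 and without the 5% of barcodes highest in UMIs 0.66. Il6 was at 28.2 and 142 CPM in Chil3 Ly6c2 monocytes, so it was higher in the splenectomy library in those cells too. Ms4a4c Ccr2 monocytes were chosen with under 3 UMIs of Areg, Inhba and Il6. Their Il6 was at 6.27 and 13.9 CPM on 14 counts in each library (log2 ratio 1.14, -0.03 to 2.32). Inhba stood at 377 (337 to 422) and 439 CPM (402 to 479), a log2 ratio of 0.22 (0.01 to 0.43) that turned to -0.47 in the cells low in MHC class II. Areg stood at 896 (833 to 963) and 688 CPM (642 to 737), a log2 ratio of -0.38 (-0.53 to -0.24), which was 0.02 in the wider set. All 3 ratios rest on cells chosen for their sum.

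Of the EGF receptor ligands and their regulators, 6 of 15 list genes reached 20 counts in either library, of which 2 were at least 1.5-fold higher and 0 lower in the splenectomy cells. Over all 5116 genes with 20 counts, 11.3% were higher and 7.33% lower by this rule, and the median log2 ratio was 0.06. Hbegf, heparin-binding EGF, stood at 15.7 and 39.5 CPM (1.33, 0.42 to 2.34) and Nrg1, neuregulin 1, at 32.7 and 62.3 CPM (0.93, 0.28 to 1.62). Adam17, the protease that sheds amphiregulin, stood at 62.9 and 69.8 CPM (0.15, -0.37 to 0.68), and Rhbdf2, which carries ADAM17 to the cell surface, at 30.2 and 38.7 CPM. Errfi1, an inhibitor of the EGF receptor, stood at 138 and 129 CPM.

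Of the activin and TGF-beta genes 10 of 24 reached 20 counts, 1 of them higher and 0 lower by 1.5-fold, with a median log2 ratio of 0.19. Tgfb1 was found in 98.2% and 100% of cells at 311 and 355 CPM (0.19, -0.04 to 0.42). Tgfbi, a matrix protein induced by TGF-beta, stood at 980 and 1143 CPM (0.22, 0.10 to 0.35). The receptor genes were low, with Tgfbr1 at 20.6 and 18.5 CPM and Tgfbr2, the higher one, at 9.68 and 17.7 CPM on 8 and 21 counts. Smad2, Smad4 and the inhibitor Smad7 stood at 24.2, 42.3 and 35.1 CPM in the sham and 24.4, 48.0 and 41.2 CPM in the splenectomy cells. Follistatin (Fst) had 1.21 CPM in the sham and 0 counts in the splenectomy cells.

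Of the IL-6 family genes 13 of 17 reached 20 counts, 7 of them higher and 0 lower, and the list's median was 0.71. Over the 152 cells the median was 0.56, under the 1.5-fold line, and over the alternatives it ran from 0.21 to 0.71. The 7 include Il6, which the rule used. Il6ra, the receptor, stood at 24.2 and 56.4 CPM (1.22, 0.48 to 2.02), with a UMI in 30.9% and 56.5% of the cells. Il6st stood at 8.47 and 18.5 CPM on 7 and 22 counts (1.13, -0.15 to 2.60), and Il11ra1 at 7.26 and 19.4 CPM. Bcl3, an NF-kB cofactor, stood at 35.1 and 63.9 CPM (0.87, 0.23 to 1.54), and Clcf1 and Lifr were the remaining higher genes. Stat3 and its target Socs3 stood at 103 and 225 CPM in the sham and 130 and 283 CPM in the splenectomy cells, log2 ratios of 0.33 (-0.06 to 0.73) and 0.33 (0.07 to 0.60). Osm, oncostatin M, was the most abundant cytokine of the family at 412 and 447 CPM (0.12, -0.08 to 0.32). In Chil3 Ly6c2 and Ms4a4c Ccr2 monocytes the list had median log2 ratios of 0.24 and 0.10.

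Of the coagulation and plasminogen genes 13 of 28 reached 20 counts, 5 higher and 1 lower, with a median log2 ratio of 0.24. F10 had the log2 ratio 0.24 (0.02 to 0.47), which was 0.74 in the wider set and -0.20 in the cells low in MHC class II. F13a1, the transglutaminase subunit that cross-links fibrin, stood at 128 and 307 CPM (1.26, 0.94 to 1.59), with a UMI in 43.6% and 74.1% of the cells. Thbs1 stood at 1173 and 1918 CPM (0.71, 0.60 to 0.82). Serpinb2, an inhibitor of plasminogen activators, stood at 13.3 and 72.4 CPM on 11 and 86 counts in 3.64% and 14.1% of cells. Pros1 and Plau were the other higher genes, on 27 counts or fewer, and Procr, the protein C receptor, was the lower one, on 27 and 13 counts. Plaur, the receptor of urokinase, and the plasminogen-binding genes Anxa2 and S100a10 had log2 ratios of 0.17, 0.00 and 0.12. F7, which partners with tissue factor to activate factor X, stood at 26.6 and 21.9 CPM, and F3, tissue factor itself, had 0 counts in the sham and 7.57 CPM in the splenectomy cells.

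Of the matrix and adhesion genes 25 of 36 reached 20 counts, 6 higher and 2 lower, with a median log2 ratio of 0.32. Vcan, used by the rule, stood at 219 and 452 CPM (1.05, 0.80 to 1.30), and its log2 ratio was 0.82 and 1.23 in the Chil3 Ly6c2 and Ms4a4c Ccr2 monocytes. Fn1, also used, stood at 1073 and 1490 CPM (0.47, 0.36 to 0.59). Spp1 stood at 1646 and 2729 CPM (0.73, 0.64 to 0.82), a log2 ratio that was -0.28 in the wider set. Icam1, an adhesion molecule for leukocytes, stood at 56.9 and 97.6 CPM (0.78, 0.28 to 1.30), and Mmp19 and Itgav were also among the higher genes. The lower genes were Itgax, which encodes CD11c (84.7 and 41.2 CPM), and Mmp12, macrophage elastase (95.6 and 42.1 CPM).

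Of 6 MHC class II genes with 20 counts 5 were lower and 0 higher, with a median log2 ratio of -1.30. H2-Aa stood at 2117 and 879 CPM and Cd74 at 6056 and 3148 CPM (-0.94, -1.01 to -0.88), and H2-DMa had the smallest difference, at -0.45. In the 91 cells under 50 MHC class II UMIs per 10000 the median was 0.58, and these cells were chosen by 4 of the same genes. Of 42 interferon-stimulated genes with 20 counts 25 were lower and 0 higher, with a median of -0.72. Slfn4 stood at 79.8 and 19.4 CPM (-2.04, -2.80 to -1.34) and Irf7, a factor of the interferon response, at 191 and 81.6 CPM (-1.23, -1.61 to -0.85) in 85.5% and 43.5% of cells. At the upper end of the list Slfn2 stood at 965 and 1397 CPM (0.53) and Ifi47 at 20.6 and 26.9 CPM (0.39). Over the 152 cells, 18 of 51 were lower and 8 higher, with a median of -0.24, against 8.83% lower and 12.5% higher of 6126 genes. The highest there was Iigp1, with 4 and 61 counts, and all 61 lay in cells of other lineages. In the cells low in MHC class II the median was -0.68, in the Chil3 Ly6c2 monocytes -0.92 and in the Ms4a4c Ccr2 monocytes -0.72.

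Of 30 inflammatory cytokine and chemokine genes with 20 counts 9 were higher and 5 lower, with a median of 0.36. Il1a stood at 184 and 381 CPM (1.05, 0.78 to 1.33) and Il1b at 6192 and 8246 CPM (0.41, 0.36 to 0.46). The most abundant, Cxcl2, stood at 13968 and 20550 CPM (0.56, 0.52 to 0.59). Among the lower genes were the CCR2 ligands Ccl7, at 976 and 565 CPM, and Ccl12, at 277 and 146 CPM, and Ccl17, at 88.3 and 44.6 CPM. Of the IL-1 and inflammasome genes 4 of 12 were higher and 2 lower, with Il1rap at 7.26 and 32.8 CPM, Nlrp3 at 463 and 766 CPM (0.73, 0.55 to 0.90) and the decoy receptor gene Il1r2, which the rule limits, at 185 and 107 CPM.

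Of 17 cell division genes with 20 counts 14 were lower and 0 higher, with a median of -1.44, but 1 of the 55 sham cells held 34.3% of the list's sham UMIs and 3 cells held 53.2%. Over the 152 cells the list's median was -1.98, and without the 5% of barcodes highest in UMIs it was -0.52. The median over cells was 14.7 UMIs per 10000 in the sham and 14.4 in the splenectomy library. The most extreme member, Ube2c, had 70 counts in the sham and 1 count in the splenectomy cells. Hmgb2 had 45.7% and Tubb5 34.6% of their sham counts in 1 cell. Classical monocyte genes had a median log2 ratio of 0.35 with 9 of 28 higher and 2 lower, among them Plac8 at 1248 and 718 CPM (-0.80) and Ms4a4c at 420 and 228 CPM (-0.88). The lists of NF-kB, AP-1 and heat shock genes, cAMP response genes and hypoxia and glycolysis genes had medians of 0.06, 0.17 and 0.05.

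**Figure D5:**
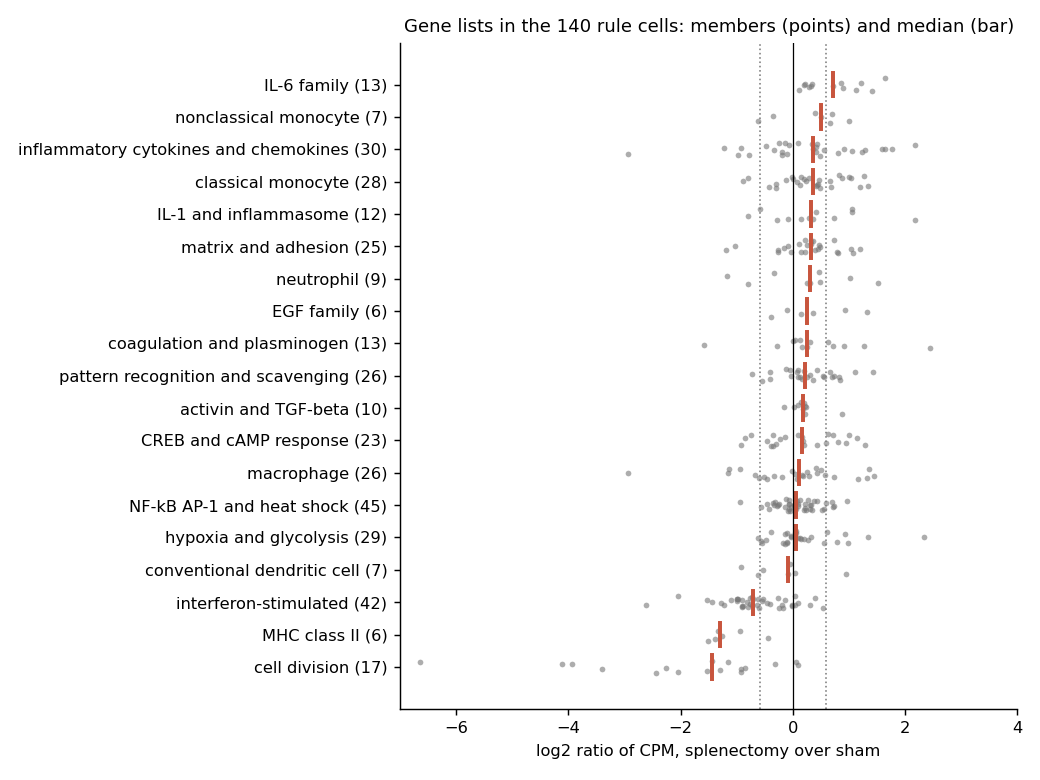
Log2 ratio of CPM, splenectomy over sham, of list members with at least 20 counts in the 140 chosen cells (points) and the median of each list (red bar), for lists with at least 5 such members (number in brackets). Dotted lines mark 1.5-fold, and the bars of the cell division, MHC class II and interferon-stimulated lists lie below the lower line while that of the IL-6 family lies above the upper one. Over all 152 cells the medians of the interferon-stimulated list (-0.24) and the IL-6 family (0.56) lie between the lines.

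The whole libraries held 53512625 UMIs in 6210 barcodes (sham) and 48024013 in 5087 (splenectomy), with medians of 5290.5 and 7324 UMIs per barcode. The 152 cells held 1053709 and 1443347 UMIs, with medians of 14575 and 13866 per cell, 3013 and 2949 genes and 1.82% and 2.18% mitochondrial UMIs. The libraries shared 9 barcodes, and none belonged to a chosen cell. No doublet caller was run.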

How the data were processed

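Gene by barcode matrices of UMI counts, 1 per library, were used as the authors deposited them. The counts were made with Cell Ranger 5.0.0, per the file headers, and the submitters' processing notes name STAR and mm10. Filters applied by the authors before deposit are not given in the sources used here. Doublets were not called. Cells were picked by the stated rule among those with at least 4000 UMIs, counts of the chosen cells were summed per library, and CPM were computed from those sums. Ratios are of CPM, with exact conditional intervals, and shares have exact Clopper-Pearson intervals. A group at 0 was limited by 3 counts. Gene ratios needed 50 counts in either library, or 20 for genes of the 26 lists. Named were the genes of the rule, the EGF, activin, IL-6, coagulation and matrix lists, the 12 highest and 12 lowest genes between libraries (at least 100 counts, 10% of cells, a 1.5-fold ratio), the 20 genes highest and 10 lowest beside other monocytes, and the ends of other lists. Other genes named in the text were chosen after their values were seen. Both the cells and the lists were chosen with earlier results of these data known. Of the 15 planned and 5 added alternatives, the closing section gives those that moved a count of genes or the share of chosen cells, or turned the sign of a ratio. Ratios and list medians that moved but kept their sign are mostly not given. Those on the wider rule and on MHC class II were added after seeing the data. The list symbols Clec7a and Sepp1 were not matched. Scripts ran in Python 3.11.15 with pandas 2.3.3, scipy 1.17.1, numpy 2.4.6 and matplotlib 3.10.9, and the ratio script was tested on simulated data. Promoters came from RefSeq, build GRCm38.p6. Some list genes are not reported here.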

Additional observations from a re-analysis of the deposited data

How the results depend on the processing

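Over the 152 cells, the splenectomy library had 102 genes at 2-fold or more above the sham library and 61 below it. The higher count was 45 with cells thinned to 4000 UMIs before the rule, 61 with at least 5 UMIs of Areg, Inhba and Il6, 29 without the top 5% of UMIs, 46 without cells of other lineages, 57 in cells low in MHC class II, 67 with cells weighted equally, 1649 with no minimum count and 49 with a minimum of 100. The lower count was 30 thinned, 34 without the top 5%, 22 in cells low in MHC class II, 2400 with no minimum and 22 with a minimum of 100. Beside other monocytes the 105 higher genes became 32 without other lineages and 28 in cells low in MHC class II. The splenectomy share was 2.65% with at least 5 UMIs, the shares were 21.2% and 33.6% under the wider rule, and 1.01% and 2.42% in cells low in MHC class II.

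Many log2 ratios moved but kept their sign, and most of these moves are not given. Over the alternatives Lrg1 ran from 0.30 to 3.24 and Tubb5 from -1.59 to -0.52. Some log2 ratios changed sign against those of the 152 cells. Lcn2 was -0.72 thinned, -0.34 without other lineages and -1.04 in cells low in MHC class II. Ugdh was 0.26 thinned and Dctpp1 0.00058 without the top 5%. Under the wider rule Hmox1 was -0.0695, Areg 0.0211, Spp1 -0.28 and the erythroid and platelet list 0.0689. In cells low in MHC class II, H2-Ab1 was 1.46, H2-DMb1 0.60, H2-Eb1 0.52, Cd74 0.50, Eng -0.63, Inhba -0.47, F10 -0.20, the MHC class II list 0.58 and the resident macrophage list -0.87. Limits of 2000 or 8000 UMIs, at least 2 UMIs of Areg, Inhba and Il6, at least 5 of Vcan and Fn1, neutrophil limits of 0.05% or 0.2%, 10% mitochondrial UMIs and median-of-ratios scaling turned the log2 ratio of no named gene and moved no count of genes beyond 1.5 times. The cause was not tested. No paired analysis was possible because there was 1 library per group, and for the same reason no library could be left out.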
